A study of Mus musculus with 2 samples.

Results

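Sites called for V5-tagged KLF6 against input DNA were examined at 7 genes of a 2.35 Mb stretch of mouse chromosome 13. The genes were Hist1h4h, Btn1a1, Btn2a2, Abt1, Zfp184, Trim27 and Gpx5. A site counted for a gene when the deposited annotation assigned it to that gene. The match was by symbol for 6 genes and by the written description for Zfp184, whose symbol field was empty. The 7 genes, of 1330 gene IDs with a site in either list, held 8 of 742 sites in experiment 1 and 4 of 901 in experiment 2. They were chosen by the positions of called sites, which gather here in both lists, so the number of sites, their spacing and their presence in both lists are a description and were not tested.

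The cells were a mouse hepatocellular carcinoma line, which the labels do not name further. All cells, those of the control included, had received a plasmid for full-length KLF6 joined to a V5 tag, so what was mapped is the tagged protein made from a plasmid and not KLF6 at its own level. The study had 1 sample of chromatin precipitated with an antibody against V5 and 1 sample of input DNA, which went through no precipitation. The labels give 3 sequencing runs for each, whereas the series' design text speaks of 2 input and 2 ChIP libraries. The deposited lists are read here as experiment 1, with 2 runs pooled, and experiment 2. Whether the experiments came from separate cultures is not stated. No library from cells without the tag was analysed here, so signal that does not depend on KLF6 could not be measured, and its part in these sites was not tested. The number of reads per library is not given, and the depth behind the tags is unknown.

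KLF6 is a zinc finger factor of the Krüppel-like family, which binds GC-rich and CACCC-type boxes in DNA and is known in liver as a growth-restraining factor. The stretch belongs to the large histone cluster of the mouse genome, where genes for replication-dependent histones, transcribed in S phase, stand among butyrophilin, zinc finger, olfactory and vomeronasal receptor genes. It is also a major home of nuclear tRNA genes, which RNA polymerase III transcribes from boxes inside the gene. In the order of genes in the RefSeq table (assembly GRCm38.p6), 271 genes follow Olfr1368 up to and including Hist1h4h. Of these, 104 are tRNA genes (24.2% of the 430 in the table), 24 are protein-coding histone genes, 36 are vomeronasal receptor genes, 9 are olfactory receptor genes, 7 are zinc finger or SCAN genes and 2 are butyrophilins.

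The sequence under the sites was not analysed here, because it needs the genome of build mm9. To show the DNA of the genes themselves, the 250 bases before the start are printed below for the 4 genes whose site was found in both experiments. They are also printed for Hist1h4a, a histone H4 gene outside the stretch. Its start lay under a site of experiment 1, 243 kb beyond the stretch. The printed bases come from the RefSeq promoter table of build GRCm38.p6 and run 5′ to 3′ along the gene's own strand. Capitals mark KLF- and SP-type boxes found by search on both strands (the box CACCC, the GC box written GGCGGG, and the longer form GGGNGGGG, which can overlap). The GRCm38.p6 positions cannot be set against the mm9 positions of the sites.
Hist1h4h (chr13:23530794-23531043, plus strand): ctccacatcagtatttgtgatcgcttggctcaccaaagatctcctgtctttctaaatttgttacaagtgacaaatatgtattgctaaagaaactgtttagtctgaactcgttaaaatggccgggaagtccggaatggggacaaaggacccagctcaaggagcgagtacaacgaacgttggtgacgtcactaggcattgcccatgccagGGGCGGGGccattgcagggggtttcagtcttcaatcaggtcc
Btn2a2 (chr13:23488858-23489107, minus strand): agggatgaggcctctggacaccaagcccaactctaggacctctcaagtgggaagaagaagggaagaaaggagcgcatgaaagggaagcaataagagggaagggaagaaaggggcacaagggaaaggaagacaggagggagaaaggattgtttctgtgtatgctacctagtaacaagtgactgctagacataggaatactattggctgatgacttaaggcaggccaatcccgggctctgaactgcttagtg
Abt1 (chr13:23423867-23424116, minus strand): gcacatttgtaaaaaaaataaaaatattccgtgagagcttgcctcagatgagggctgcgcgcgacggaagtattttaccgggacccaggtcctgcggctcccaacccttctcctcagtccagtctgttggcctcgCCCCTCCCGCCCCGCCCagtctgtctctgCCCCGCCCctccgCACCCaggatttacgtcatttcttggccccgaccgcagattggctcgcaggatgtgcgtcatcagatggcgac
Zfp184 (chr13:21944844-21945093, plus strand): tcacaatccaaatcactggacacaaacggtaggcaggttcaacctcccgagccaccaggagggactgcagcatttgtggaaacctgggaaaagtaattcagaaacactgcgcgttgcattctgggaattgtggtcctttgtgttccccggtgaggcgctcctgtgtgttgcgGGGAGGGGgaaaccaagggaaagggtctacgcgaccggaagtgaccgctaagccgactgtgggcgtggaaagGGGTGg
Hist1h4a (chr13:23761250-23761499, minus strand): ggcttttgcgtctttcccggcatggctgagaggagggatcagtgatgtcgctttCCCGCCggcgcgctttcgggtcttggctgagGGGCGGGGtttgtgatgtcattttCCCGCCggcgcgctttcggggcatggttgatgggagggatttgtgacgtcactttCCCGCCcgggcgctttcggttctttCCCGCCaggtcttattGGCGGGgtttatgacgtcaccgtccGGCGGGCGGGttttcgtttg

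A CACCC box was in 52.0% of the 32851 windows of the table, GGCGGG in 32.5%, GGGNGGGG in 30.8% and at least 1 of the 3 in 66.9%. Abt1 had 3 GGCGGG, 3 GGGNGGGG and 1 CACCC match, Hist1h4h had a single GC box that matches both GGCGGG and GGGNGGGG, and Zfp184 had 1 GGGNGGGG and 1 CACCC match. Btn2a2 had 0 of the 3 boxes. Hist1h4a had 8 GGCGGG matches and 1 GGGNGGGG match, and its window was 61.6% G and C against a median of 52.4% over the table. Of the other genes, Trim27 had 2 CACCC, 1 GGCGGG and 2 GGGNGGGG matches, Gpx5 had 0 of the 3 boxes, and Btn1a1 was not matched in the promoter table. The consensus of the tRNA genes' B box was in 0 of these windows and in 0.673% of all windows. None of the 12 sites of the 7 genes lay within 1 kb of a start, so these windows describe the genes and not the sites.

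The 12 sites lay in a stretch of 2.35 Mb, from 21259710 to 23610034 (mm9, as are all site positions here). Within it, experiment 1 had 11 sites, 3 of them assigned to other genes, out of 42 on the chromosome. Experiment 2 had 7, again with 3 assigned to other genes, out of 45. Chromosome 13 as a whole carried 5.66% and 4.99% of the sites of the lists. Summits of consecutive sites in the stretch were a median of 65.4 kb apart in experiment 1 and 98.0 kb in experiment 2, against 1900 kb and 1700 kb over all chromosomes. Spacings under 100 kb made up 7 of 10 in the stretch in experiment 1 (7.76% of all 722 spacings of that list) and 3 of 6 in experiment 2 (5.11% of all 881).

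**Figure D1:**
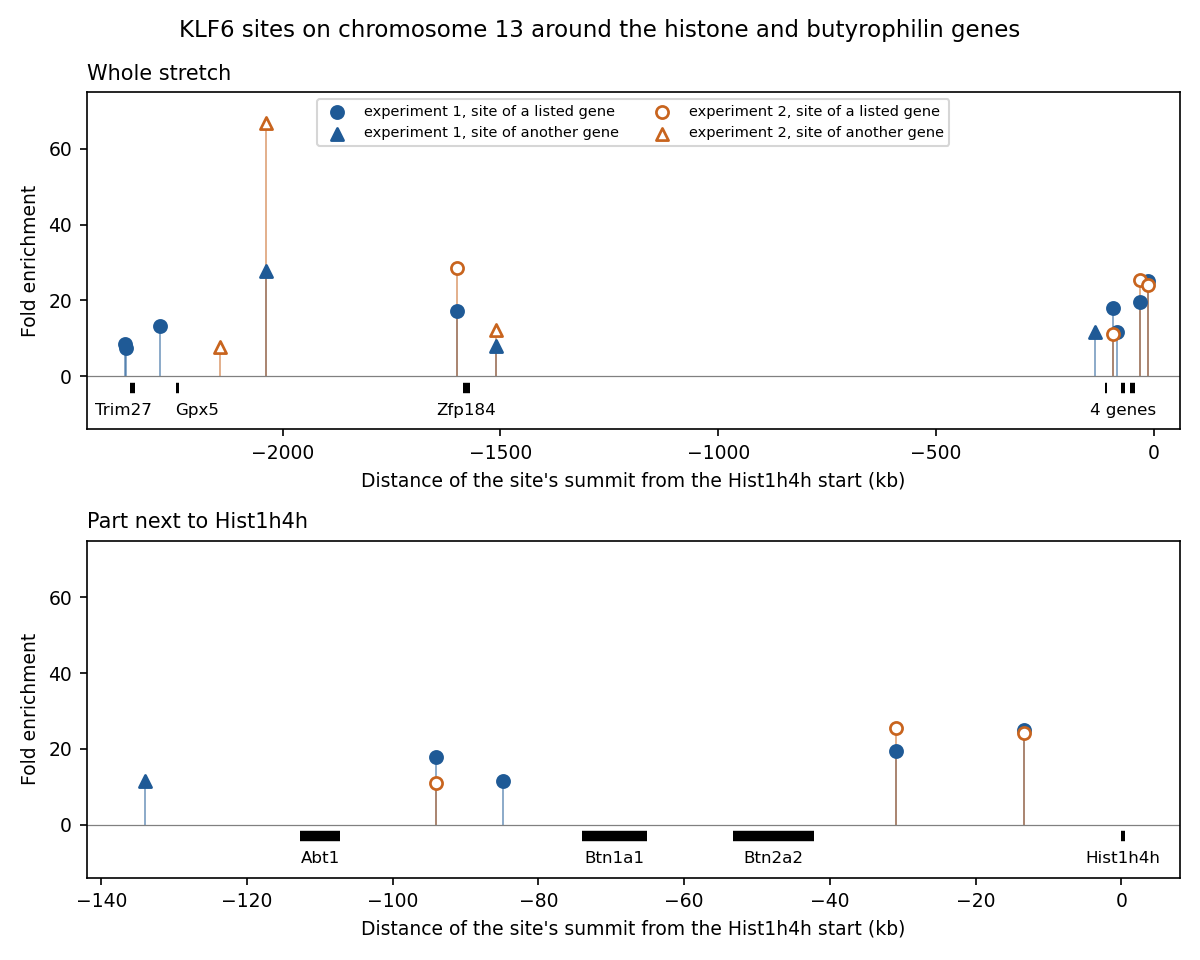
Fold enrichment (vertical axis) of each site in the stretch against the distance of its summit from the Hist1h4h start in kb (horizontal axis), for experiment 1 (filled) and experiment 2 (open). Circles are sites of the 7 genes, triangles sites assigned to other genes and black bars the genes. The upper panel shows 2 groups of sites with a gap of 1.38 Mb in experiment 1, and the lower panel enlarges the group next to Hist1h4h.

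Hist1h4h encodes histone H4, a core protein of the nucleosome. Its site lay at 23609298 to 23610034 in experiment 1, with 64 tags (exact Poisson interval 49.3 to 81.7, as are all intervals on tags here), 25.1-fold enrichment and a false discovery rate (FDR) of 4.17%. In experiment 2 it lay at 23609426 to 23609777, with 32 tags (21.9 to 45.2), 24.1-fold enrichment and an FDR of 28.6%. The summits of the experiments were 3 bp apart, 13.3 kb upstream of the gene, and the fold was almost the same in both. By fold the site ranked 22 of 742 in experiment 1 and 16 of 901 in experiment 2.

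Btn2a2 encodes a butyrophilin, a membrane protein of the immunoglobulin superfamily that dampens T cell responses. Its site had the most tags and the greatest width of the 8 in experiment 1. It spanned 23591562 to 23592676, with 85 tags (67.9 to 105), 19.5-fold enrichment and an FDR of 4.55%. In experiment 2 it spanned 23591876 to 23592216, with 33 tags (22.7 to 46.3), 25.5-fold enrichment and an FDR of 36.4%. Its summits, 21 bp apart, lay 11.3 kb upstream of Btn2a2 and 17.6 kb from the Hist1h4h summit in both experiments. The tag intervals of Btn2a2 and Hist1h4h overlapped in each experiment, but a difference between their counts was not tested. The counts are not for equal widths, as the sites spanned 1115 bp and 737 bp in experiment 1.

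Btn1a1 encodes the butyrophilin of the milk fat globule. It had a site in experiment 1 only, at 23537801 to 23538385, with 29 tags (19.4 to 41.6), 11.6-fold enrichment and an FDR of 100%. This site lay downstream of the gene, 19.8 kb from its start, and its summit was 9.10 kb from that of the Abt1 site. Whether its absence from experiment 2 reflects depth was not tested.

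Abt1 encodes a nuclear activator of basal transcription that binds the TATA-binding protein. Its site lay at 23528778 to 23529048 in experiment 1, with 32 tags (21.9 to 45.2), 17.9-fold enrichment and an FDR of 2.08%, the lowest of the 8. In experiment 2 it lay at 23528840 to 23528984, with 11 tags (5.49 to 19.7), 11.04-fold enrichment and an FDR of 100%. It was the narrowest of the sites in each experiment, at 271 bp and 145 bp, and in experiment 1 the densest, with 118 tags per kb against 43.5 to 86.8 at the other 7. The summits were 1 bp apart, 13.2 kb upstream of the gene. Within its list it ranked 52 of 742 by fold in experiment 1 and 331 of 901 in experiment 2.

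Zfp184 encodes a zinc finger protein described as Krüppel-like. Its site lay at 22022748 to 22023229 in experiment 1, with 34 tags (23.5 to 47.5), 17.1-fold enrichment and an FDR of 4.23%. In experiment 2 it lay at 22022884 to 22023132, with 20 tags (12.2 to 30.9), 28.6-fold enrichment and an FDR of 23.8%. The summits were 36 bp apart, 13.9 kb upstream of the gene. Within its list it ranked 58 of 742 by fold in experiment 1 and 10 of 901 in experiment 2. The lists differ in length, so these ranks cannot show whether a site changed between the experiments. Of the 4 genes found in both experiments, it alone stood away from the group around Abt1, Btn2a2 and Hist1h4h, whose summits fell within 80.7 kb in each experiment.

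Trim27, which encodes a ubiquitin ligase of the tripartite motif family, had 2 sites in experiment 1 and 0 in experiment 2. The farther site, at 21259710 to 21260238, had 23 tags (14.6 to 34.5) at 8.44-fold, 12.1 kb upstream. The nearer, at 21263937 to 21264485, had 28 tags (18.6 to 40.5) at 7.55-fold, 7.83 kb upstream. Both had an FDR of 100%, their summits were 4.27 kb apart, and their fold was the lowest of the 8 sites, close to the median of 7.17 over the whole list. Gpx5, the gene of an epididymal glutathione peroxidase, also had a site in experiment 1 only, at 21340973 to 21341452, with 24 tags (15.4 to 35.7), 13.3-fold enrichment and an FDR of 61.4%. It lay downstream of the gene, 43.5 kb from its start, the greatest distance among the 7 genes.

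**Figure D2:**
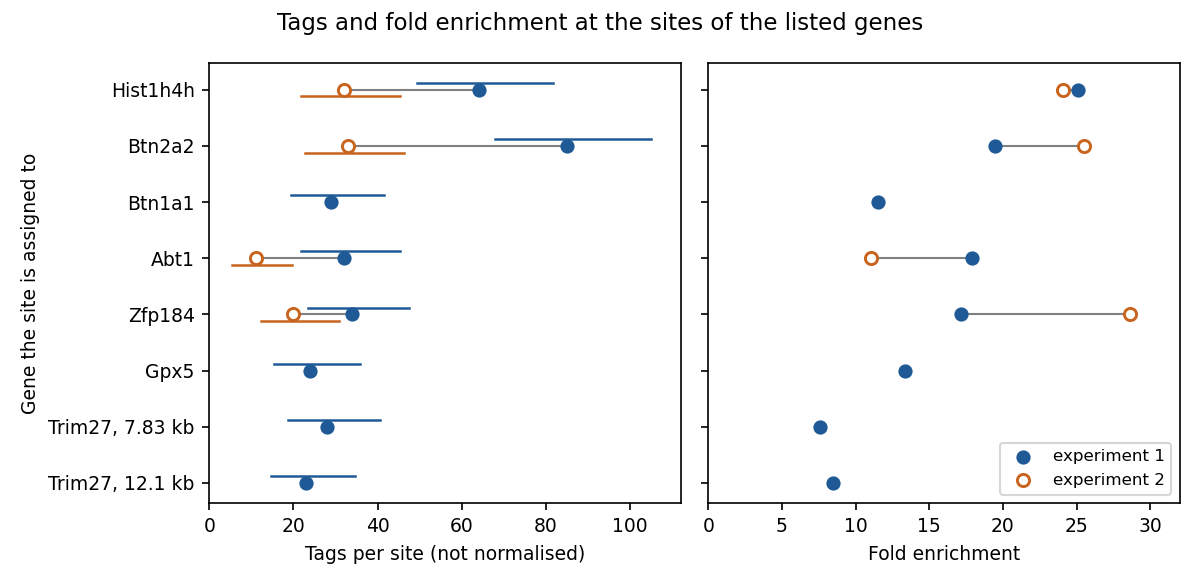
Tags per site (left, not normalised) and fold enrichment (right) at the 8 sites of experiment 1 (filled) and the 4 sites of experiment 2 (open), by assigned gene. Grey lines join the experiments and coloured bars are exact Poisson intervals at 95% on the tags. Tags were lower in experiment 2 at all 4 genes found in both, while fold was higher at Zfp184 and Btn2a2, lower at Abt1 and close at Hist1h4h.

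Sites at 4 of the 7 genes, Hist1h4h, Btn2a2, Abt1 and Zfp184, were thus found in both experiments, which is 4 of the 8 sites of experiment 1 (50%, exact Clopper-Pearson interval 15.7 to 84.3) and 4 of the 4 of experiment 2. Over the whole lists 14.7% and 12.4% of sites overlapped the other list by at least 1 bp. On chromosome 13 outside the stretch the shares were 16.1% (5 of 31) and 21.1% (8 of 38). Presence in both lists was part of the choice of genes, so nothing is read from the difference or from the interval. In each of the 4 pairs the site of experiment 2 lay wholly inside that of experiment 1, as in 93 of all 109 pairs (85.3%). Summits of the 4 pairs were 1 to 36 bp apart (median 12 bp, against 10 bp over all 109 pairs). The median ratio of tags between experiment 1 and experiment 2 was 2.29 at the 4 genes and 2.40 over all pairs, and that of width was 2.01 and 2.11.

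The fold of experiment 2 divided by that of experiment 1 ran from 0.616 at Abt1 through 0.96 at Hist1h4h and 1.31 at Btn2a2 to 1.67 at Zfp184. Over all pairs it had a median of 0.956 and ran from 0.311 to 2.45. There is 1 value per gene and experiment, so these ratios have no replicate check.

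Among the 8 sites of experiment 1, those of the 4 genes found in both experiments were the stronger. Their fold ran from 17.1 to 25.1, above the range of 7.55 to 13.3 at the 4 sites found in experiment 1 only, and their tags from 32 to 85 against 23 to 29. Shared sites were also stronger in the median over the whole list, at 15.3-fold and 39 tags against 6.66-fold and 20 tags at unshared sites. All 4 sites of these genes had an FDR of 5% or lower, which 61 of the 742 sites of experiment 1 reached (8.22%). It was reached by 38.5% of the shared and 3.0% of the unshared sites of that list. In experiment 2 no site reached it (0.0% of 901), but Hist1h4h, Btn2a2 and Zfp184 were among the 29 sites with an FDR under 100% (3.22%). Such an FDR was held by 24.1% of the shared and 0.253% of the unshared sites of experiment 2. The median fold over all sites of the 7 genes was 15.2 in experiment 1, against 7.17 over the list, and 24.8 in experiment 2, against 10.0. At the 4 genes found in both the medians were 18.7 and 24.8, against 15.3 and 14.3 over all shared sites. These values come from the same ChIP and input libraries as the choice of genes and serve as a description.

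**Figure D3:**
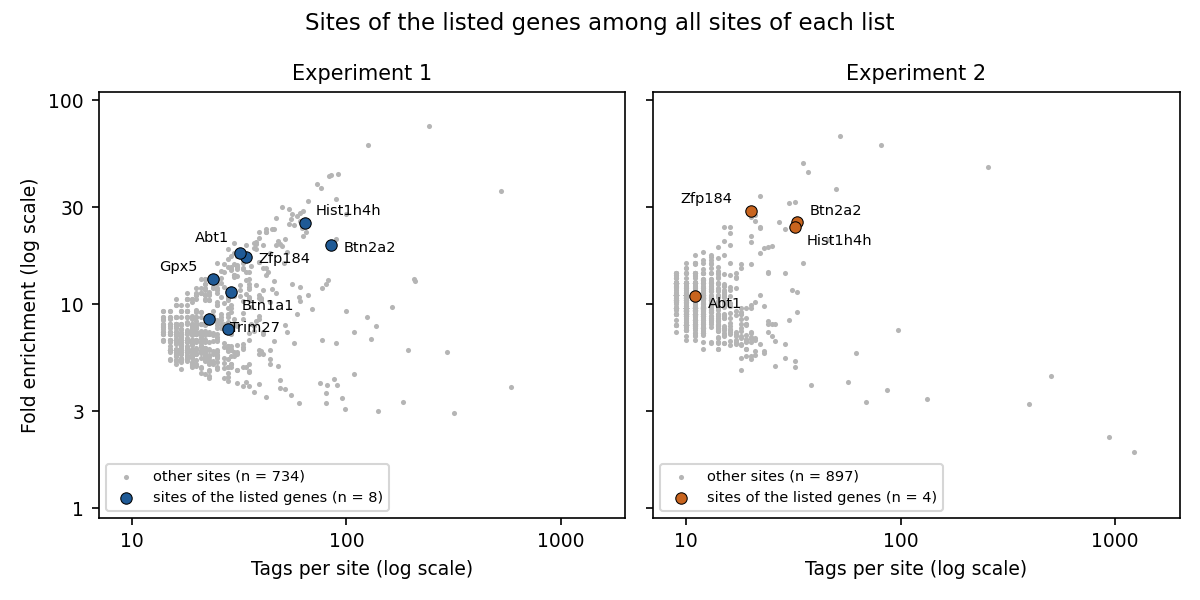
Fold enrichment against tags per site, both on log axes, for every site of experiment 1 (left) and experiment 2 (right); grey points are other sites and coloured points the sites of the 7 genes. The sites at Hist1h4h and Btn2a2 stand toward the upper right in both panels, whereas those at Trim27 in experiment 1 and Abt1 in experiment 2 lie within the mass of sites.

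Position relative to the genes was alike among the 4 genes found in both experiments. All lay upstream, with summits 11.3 to 13.9 kb from the start, and so did the farther Trim27 site at 12.1 kb. Upstream placement held for 6 of the 8 sites in experiment 1 (48.7% of the list) and 4 of the 4 in experiment 2 (46.3%). A distance of 10 to 15 kb upstream, a window set after the values were seen, held for 5 of the 8 sites (4.72% of the list) and 4 of the 4 (3.66%). Over all shared sites it held for 9.17% and 8.93%, which is 10 sites in each list with those of the 4 genes included. None of the 12 sites lay inside the assigned gene, a place held by 13.3% and 18.4% of all sites. With so few sites, nothing is read from this absence.

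The order of genes in the RefSeq table put the 12 sites in 5 intervals between protein-coding genes, all of which hold tRNA genes. Each site was placed beside its assigned gene, on the side where it lay. Whether it lay short of the interval's other end was not checked. The interval from Abt1 to Btn1a1, with the sites of both, holds 14 tRNA genes, 5 of them for tyrosine. The interval from Btn2a2 to Hist1h4h, with the sites of both, also holds 14, among them 3 each for arginine, methionine and serine. The interval before Zfp184, whose other flank is a histone gene (H4bc24 in the table), holds 21, of which 5 are for serine. Intervals before and after Trim27 hold 9, with 3 for leucine, and 13, with 6 for alanine. Only 134 of the 19714 intervals between protein-coding genes in the table hold a tRNA gene (0.68%), and 5 of them hold 14 or more.

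**Figure D4:**
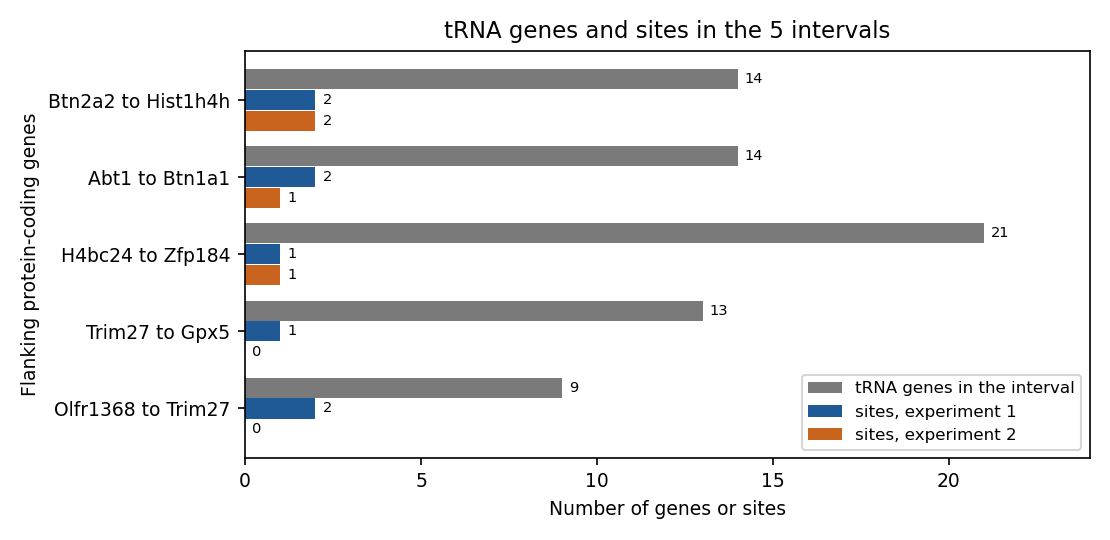
Number of tRNA genes (grey) and of sites in experiment 1 (blue) and experiment 2 (orange) in the 5 intervals, named by their flanking protein-coding genes, as counted from gene order. The number of tRNA genes runs from 9 to 21 and that of sites from 1 to 2 in experiment 1 and from 0 to 2 in experiment 2, and the interval with the most tRNA genes, before Zfp184, has 1 site in each.

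All 8 sites of the 7 genes in experiment 1 and all 4 in experiment 2 were placed in such intervals. Of all sites that could be placed between protein-coding genes, 11.4% of 228 and 3.77% of 265 were. Without the 7 genes the shares were 8.18% of 220 and 2.3% of 261. Sites were placed by symbol, except those of Zfp184, which were placed by description. Other sites without a symbol were left out. The tRNA genes were part of why this stretch was chosen, and the distance between a site and a tRNA gene was not analysed here. How reads that fit several tRNA copies were treated is likewise not given in the sources used here.

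Sites assigned to other genes lay among those of the 7. The strongest of the stretch was 2.33 kb upstream of ENSMUSG00000035253, where experiment 1 had 100 tags at 27.8-fold and experiment 2 had 52 tags at 66.9-fold. Its FDR was 7.69% in experiment 1 and 100% in experiment 2, although it ranked 1 by fold and 3 by score there. At this site an FDR of 100% thus did not go with a low fold or score. In that list 872 of the 901 sites had an FDR of 100%, with 787 of the 789 unshared sites among them. A weaker site, 5.52 kb upstream of ENSMUSG00000043145 and 90.0 kb from the Zfp184 summit in each experiment, had 30 tags at 8.07-fold and 15 tags at 12.3-fold. Together with the 4 genes above, 6 of the 11 sites of the stretch in experiment 1 and 6 of the 7 in experiment 2 were found in both. Besides the 4 sites at Trim27, Gpx5 and Btn1a1, the stretch had 2 sites found in 1 list only. These were 1 in experiment 1, 39.9 kb before the Abt1 summit, at 11.6-fold, and 1 in experiment 2, 106 kb before the 66.9-fold site, at 7.62-fold. The widest gap without a site, 1.38 Mb in experiment 1 and 1.42 Mb in experiment 2, falls between Zfp184 and Abt1. From Zfp184 to Abt1 the gene order lists 36 vomeronasal receptor genes and 26 tRNA genes. That span is wider than the gap, as it also holds the ENSMUSG00000043145 site and the site 39.9 kb before the Abt1 summit. How many of these genes lie in the gap itself was not counted.

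Outside the stretch, sites were far away except on the side of Hist1h4h. There the nearest was that of Hist1h4a, another histone H4 gene, in experiment 1 only, 243 kb beyond the stretch at 23852800 to 23853199. It covered the gene start and had 30 tags, 13.9-fold enrichment and an FDR of 18.2%. In experiment 2 the nearest on that side was 2170 kb away, at 7.96-fold. On the Trim27 side the nearest sites were 11400 kb away in experiment 1, at 7.88-fold, and 4500 kb away in experiment 2, at 11.2-fold.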

How the data were processed

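Chromatin immunoprecipitation with sequencing was run on 1 KLF6-V5 sample and 1 input sample, and 2 annotated lists of sites were deposited, for experiment 1 (2 runs pooled) and experiment 2. The submitters' processing notes list MACS 1.3.6 and mm9 without a role. The aligner is not given in the sources used here, nor are its settings or the library sizes. Per the file headers, the authors give each site a tag count (whole numbers, not normalised), a score (−log10 of the peak p-value, multiplied by 10), a fold enrichment (a ratio) and an FDR in percent. All are the authors' values for the site and were used as deposited. The genes, lists and windows here were chosen with earlier results of these data known. All 7 genes, and every other site between their outermost sites with the nearest 2 sites on each side, were considered. Sites were called shared at an overlap of at least 1 bp. Width is end minus start plus 1. Shares have exact Clopper-Pearson intervals and tags exact Poisson intervals, both at 95% and for counting error only. With 1 sample per group, no test was made. Gene symbols of all 7 genes matched the RefSeq table of GRCm38.p6 (Hist1h4h as H4c8), which served for gene order only, and 6 matched its promoter table. For Zfp184, which has 2 entries there, the first was used. A site was placed in the interval between protein-coding genes on the side of its assigned gene where it lay, whatever its distance from that gene. The overlap search was tested on simulated sites. The motif search was tested only for CACCC, planted in simulated sequences of A and T, and the other motifs were not tested. Python 3.11.15, pandas 2.3.3 and SciPy 1.17.1 were used. Alternatives were the higher-scoring 50% of sites, an FDR under 100%, an overlap of 50% of each site, summits within 100 bp, all sites of the stretch, and each experiment left out.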

Additional observations from a re-analysis of the deposited data

How the results depend on the processing

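No paired analysis was possible because each group has 1 sample and the lists hold no values per library. Of 25 alternatives, 20 stayed within 1.5 times the reported value and 5 moved beyond it. With an FDR under 100%, 5 of the 8 sites of experiment 1 were left. When sharing required an overlap of 50% of both sites, 2 sites at 2 genes were shared in place of 4, Abt1 and Zfp184, because the narrower sites of experiment 2 cover 30.6% of the site of experiment 1 at Btn2a2 and 47.8% at Hist1h4h. Counting every site of the stretch gave 7 in place of 4 sites in experiment 2, as the wider choice implies. Leaving out an experiment, between 4 and 7 genes had a site: without experiment 1, Btn1a1, Trim27 and Gpx5 had none. Depth is unknown, so the absence of a site from a list cannot be set against it.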

Other observations

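Other histone genes had sites in 1 list each. A site of experiment 1 covered the start of a histone H4 gene given as Hist2h4 on chromosome 6, at 136752394 to 136753123, with 28 tags at 8.20-fold and an FDR of 100%. H1fx, the gene of a replication-independent linker histone, had a site 15.9 kb upstream on chromosome 6 in experiment 1, with 18 tags at 11.3-fold. In experiment 2 a site on chromosome 15, assigned to a gene described as an H2A family member, had 10 tags at 10.9-fold, 57.7 kb from the gene start. Both of these sites also had an FDR of 100%.

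Away from the 7 genes, 18 sites of experiment 1 were placed, by assigned gene and side alone, in 17 intervals that hold a tRNA gene. Of these, 3 were shared with experiment 2 (16.7%), against 27 of the 202 sites in intervals without a tRNA gene (13.4%), and the median folds were 11.3 and 7.28. The shared sites were those at Hes7, a gene of the segmentation clock (19.6-fold and 12.1-fold), Rab11a, a recycling endosome GTPase gene (12.7-fold in each experiment), and Fam83a (12.5-fold and 6.96-fold). In experiment 2, 6 sites were placed in 5 such intervals. Of these sites, 3 were shared with experiment 1 (50%), against 30 of the 255 sites in intervals without (11.8%). The 6 sites had a median of 10.7-fold against 10.0-fold at those 255. These are descriptions of sites, which are not replicates, and were not tested.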
